A study of Homo sapiens with 8 samples.

Results

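HT29 clones carrying shRNA against CD24 were compared with 2 control arrays of the same line, over 5 of the 8 arrays of the series. HT29 is an established cell line from a human colorectal cancer. The CD24 shRNA group held 3 arrays: 1 clone with 1 vector (the 1-vector clone) and 2 clones with 2 vectors, labelled siRNAc.G and siRNAc.E and called clone G and clone E here. The controls were an HT29 clone with a vector for GFP-directed shRNA (the GFP clone) and untreated HT29 cells, the parental line, which carried no vector and had not been cloned as far as the labels say. Each array held 1 cell sample, and each clone is a single clone, so that a difference between clones and controls can hold the spread between clones as well as the lowering of CD24. The vectors, their promoters and the hairpin sequences were not stated in the sources used here. The series also has antibody-treated HT29 (72 h at 1 to 40) and 2 arrays of a pancreatic line. These enter the comparisons of clones and controls only through an alternative fit of all 8 arrays and the choice of each gene's probe set. That probe set was the brightest over the 8 arrays. Antibody-treated HT29 is otherwise quoted as a further array of the line. The question the design sets is how expression in HT29 differs once CD24 is lowered.

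Genes were chosen by the order of the 5 arrays. A gene was taken as one-sided when all 3 clones lay above, or all 3 below, both controls. Of 11963 genes with a probe set of their own, 6756 passed the filter on dim genes (a mean over the 5 arrays above the median probe set, an intensity of about 43.5), and 2696 of these were one-sided. Values are array intensities on a linear scale, and differences are on the log2(intensity + 10) scale, which understates those of dim genes. A difference of 1 is 2-fold, and the gap is the distance between the nearest clone and the nearest control. The gap was used to choose which genes are named, so it is given as a description.

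CD24 is a small, heavily glycosylated protein held in the outer cell membrane by a lipid (GPI) anchor. It is a sialomucin that serves as a ligand for P-selectin and for the inhibitory receptor Siglec-10, and it signals from lipid rafts, in part through Src family kinases. Many epithelial tumours, colorectal cancer among them, carry more of it than the normal tissue. A small hairpin RNA is cut by the cell into a short interfering RNA that guides the degradation of a matching transcript.

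CD24 itself was low in all 3 clones. Its mean over 6 probe sets, on the log2 scale, was 8.40 in the 1-vector clone, 7.78 in clone G and 8.39 in clone E, against 11.25 in untreated HT29 and 11.56 in the GFP clone. The means were 8.19 ± 0.35 in the clones (SD, n = 3) and 11.41 ± 0.22 in the controls (SD, n = 2), a 9.29-fold difference. The clones and the controls did not overlap. A two-sided exact permutation test over the 10 possible splits gave p = 0.1, the smallest that 5 arrays allow. Neither control carried the difference alone, since the clones' log2 difference was -3.06 from untreated HT29 and -3.37 from the GFP clone. At the brightest probe set the intensity was 558 in the 1-vector clone, 172 in clone G and 596 in clone E, against 6425 in untreated HT29 and 7362 in the GFP clone. The 6 probe sets ranged from 3.02-fold to 17.4-fold lower. CD24 has near-identical pseudogene copies that some of its probe sets can also detect, and the part of these in the remaining signal was not tested. In RNA from a whole culture, fewer cells with CD24 and less CD24 RNA per cell cannot be told apart. Clone G had the lowest mean, while clone E, also with 2 vectors, had nearly the same mean as the 1-vector clone. The order of the clones differed between probe sets. Clone G was lowest at 4 of the 6, of which 3 are of the type most open to cross-hybridization (_x_at), and highest at the other 2, for example at 1062, against 597 in the 1-vector clone and 594 in clone E.

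The arrays were not equally far apart. Correlations were taken over all probe sets but the platform's control ones, dim ones included. Clone E correlated more closely with the GFP clone (r = 0.960) and untreated HT29 (r = 0.944) than the 1-vector clone did (0.914 and 0.897) or clone G (0.896 and 0.889). The controls correlated at 0.935 with each other. These values are descriptions over probe sets that share an array. Clone G had a 3′ to 5′ ratio of 1.77 at the ACTB control probe sets, against 1.06 to 1.17 on the other 4 arrays, and a signal of 435 at the 3′ 18S rRNA probe set, against 23.4 to 45.1. The dap control transcript read 917 in the 1-vector clone, 668 in clone G and 406 in clone E, against 277 in untreated HT29 and 275 in the GFP clone, so it also separated clones from controls. Its part in the results below was not tested. Of 12 colon epithelial markers, 7 were above the filter: EPCAM, keratins 8, 18, 19 and 20, VIL1 and LGALS4. VIL1 was at 248.5 in the 1-vector clone, 27.9 in clone G and 25 in clone E, against 439.3 in untreated HT29 and 105.5 in the GFP clone. LGALS4 was at 682.2, 53.6 and 32.5 in the same clones, against 4581.5 in untreated HT29 and 584.5 in the GFP clone. In both genes clones G and E lay below both controls, and the 1-vector clone lay between the controls. CDX1, CDX2, CDH17, GPA33 and CEACAM5 were dim, at 58.2 or less, on all 5 arrays. The summed level of the 12 was 39798 to 44039 in the clones, against 37921 to 39105.9 in the controls, most of it keratins 8 and 18. Of the markers for fibroblasts, endothelium, leukocytes, melanocytes and neural cells, COL1A1 and LYZ passed the filter, while PTPRC, CD3D, CDH5, VWF and SOX10 were at 29.8 or less. Others that did not pass were brighter on single arrays, as CD14 (62.9 in the 1-vector clone, 58.5 in untreated HT29) and DCN (56.6 in the 1-vector clone). CD79A was at 35.2 to 52.5 in the clones, against 11.3 in untreated HT29 and 29.4 in the GFP clone. The leukocyte sum was 3864 to 4416 in the clones, against 4619.8 to 4791 in the controls, nearly all of it LYZ.

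Genes below both controls were more often far below them than genes above were far above. Of the 6756 genes, 1355 (20.1%) had all 3 clones above both controls and 1341 (19.8%) had all 3 below. Among those above, 141 (2.09%) had a clone mean at least 2-fold higher than each control, and in 323 (4.78%) only untreated HT29 lay 2-fold away, in 124 (1.84%) only the GFP clone, and in 767 (11.4%) neither. Among those below, 718 (10.6%) were 2-fold lower than each control, 153 (2.26%) were 2-fold lower than untreated HT29 only, 126 (1.87%) than the GFP clone only, and 344 (5.09%) than neither. So the share of one-sided genes that lay 2-fold from untreated HT29 alone was larger above than below. On a stricter count, chosen after the data were seen, even the nearest clone lay 2-fold or more beyond the nearest control in 23 genes above (0.34%) and 86 below (1.27%). The 2-fold limit cut through a continuum. NDUFA9 was just inside above (1.003 from untreated HT29 and 1.27 from the GFP clone) and AURKB just outside (0.990 and 1.15), while below, KIAA0232 was just inside (-1.003 and -1.89) and C1GALT1 just outside (-1.49 and -0.999). Quantile normalization in place of the deposited scaling moved the median difference of all genes to 0.18, against 0.04 as deposited, and changed the split between 141 higher and 718 lower into 279 higher and 481 lower.

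No gene passed limma's test of the 3 clones against both controls after Benjamini-Hochberg adjustment (0%, smallest adjusted p = 0.208), although 431 higher (6.38%) and 910 lower (13.5%) had an unadjusted p under 0.05. Against untreated HT29 alone 66 genes passed (0.977%; 56 higher and 10 lower in the clones), and against the GFP clone alone none did (0%, with 900 at an unadjusted p under 0.05). With a single control array, the test assumes that control to vary like the clones. The labels do not say whether arrays came from separate cultures or RNA preparations, so these p-values measure the spread between the arrays only. Of the 66 genes, the GFP clone lay within 2-fold of the clones for 45 of the 56 higher and 4 of the 10 lower. In 45 of the 56 untreated HT29, and in 6 of the 10 the mean of the clones, lay under the level of the filter, so these calls set a bright side against a dim one and are not used as support for single genes below. Both single-control comparisons use the same 3 clones, and their values are therefore given side by side.

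**Figure D1:**
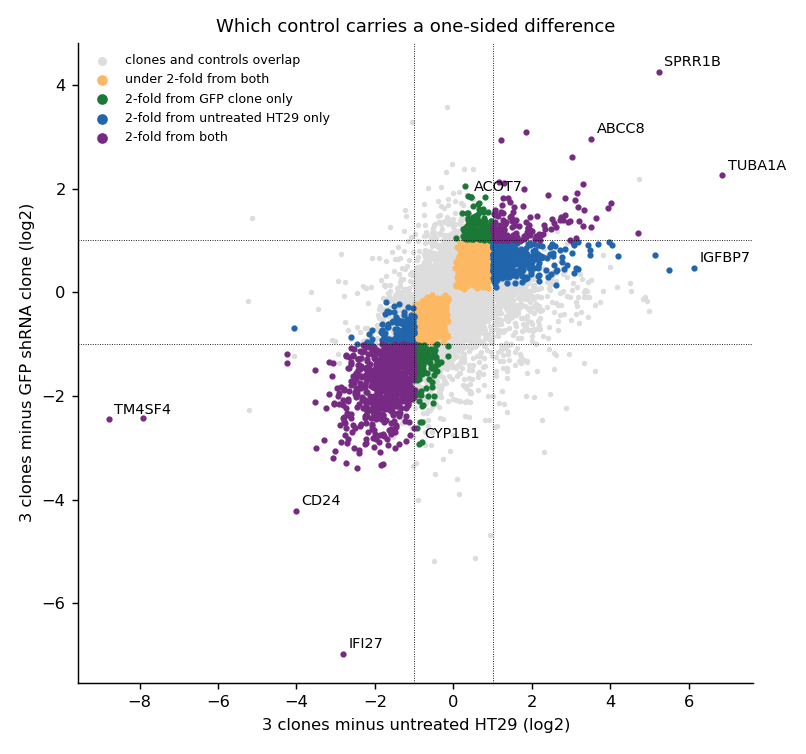
Difference of the 3 CD24 shRNA clones from untreated HT29 (x, log2) and from the GFP clone (y, log2) for the 6756 genes tested, 1 point a gene. Grey genes have overlapping clones and controls, dotted lines mark 2-fold, and the 718 genes 2-fold below both controls at the lower left outnumber the 141 at the upper right.

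Clone E sat nearest to the controls in most of the genes 2-fold beyond both. It was the nearest of the 3 clones in 687 of the 718 genes 2-fold below both controls (95.7%) and in 88 of the 141 above (62.4%). Clone G was the farthest in 390 and 106 of these. Without clone E, 254 genes lay 2-fold above and 1150 below both controls, and limma's adjusted test against both then passed 626 genes (12 that rose and 614 that fell). Without clone G the counts were 75 above and 521 below, and without the 1-vector clone 161 and 582. Where a gene had other probe sets above the filter, at least 1 of them was on the same side for 26 of 33 genes above (78.8%) and 235 of 266 below (88.3%). Over the 3178 other probe sets of all genes, each counted singly, 12.6% lay above and 27.0% below both controls. A gene with several other probe sets had more than 1 opportunity to count, so the shares are not strictly alike. Of the 141 genes, 35 had a control mean under the filter, and 154 of the 718 had a clone mean under it, so these passed the filter only through their brighter group.

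The 12 genes that stood clearest above both controls had gaps of 1.22 to 2.33, and they belong to unlike families. ABCC8, the sulphonylurea receptor subunit of an ATP-sensitive potassium channel, had the widest gap. Its intensity was 339.6 in the 1-vector clone, 99.5 in clone G and 118 in clone E, against 4.8 in untreated HT29 and 11.8 in the GFP clone. It was near the floor in both controls and the difference was carried by both (3.52 from untreated HT29, 2.96 from the GFP clone). A second ABCC8 probe set, below the filter, stayed at 2.5 or less on all 5 arrays and did not show it. TUBA1A, an alpha-tubulin of the microtubules, was at 3928 in the 1-vector clone, 7247 in clone G and 3649 in clone E, against 30.6 in untreated HT29 and 973 in the GFP clone. The clones were far above both, but untreated HT29 lay much farther away (6.86) than the GFP clone (2.26). Alpha-tubulin genes are close paralogues, and cross-hybridization between them was not tested.

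SPRR1B and SPRR1A, small proline-rich proteins that are cross-linked into the cornified envelope of squamous epithelia, were higher in all 3 clones than in both controls. SPRR1B was at 149.5 in the 1-vector clone, 3345 in clone G and 827 in clone E, against 10.3 in untreated HT29 and 30.1 in the GFP clone. The clones differed among themselves widely, with clone G the brightest, and their mean lay above untreated HT29 by 5.24 and above the GFP clone by 4.25. Its neighbour SPRR1A followed the same order at 136 in the 1-vector clone, 2429 in clone G and 492 in clone E, against 59 in untreated HT29 and 81.8 in the GFP clone, with differences of 3.03 from untreated HT29 and 2.62 from the GFP clone, although the 1-vector clone was under 2-fold from the GFP clone. These genes are close copies, and signal shared between their probe sets was not tested. Both are known targets of AP-1, the factor of the FOS and JUN proteins, and their promoters are shown because the pair was high together. The sequences run from 250 bases before to 50 after the transcription start and come from RefSeq (GRCh38.p14, plus strand), with each TGANTCA match in capitals.

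SPRR1B, chr1:153030953-153031252: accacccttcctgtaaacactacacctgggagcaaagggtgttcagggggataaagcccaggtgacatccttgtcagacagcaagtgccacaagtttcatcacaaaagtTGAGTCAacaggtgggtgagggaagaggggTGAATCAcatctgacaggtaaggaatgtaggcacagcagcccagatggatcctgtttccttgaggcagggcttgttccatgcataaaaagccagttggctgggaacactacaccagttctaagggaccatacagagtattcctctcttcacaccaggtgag
SPRR1A, chr1:152983831-152984130: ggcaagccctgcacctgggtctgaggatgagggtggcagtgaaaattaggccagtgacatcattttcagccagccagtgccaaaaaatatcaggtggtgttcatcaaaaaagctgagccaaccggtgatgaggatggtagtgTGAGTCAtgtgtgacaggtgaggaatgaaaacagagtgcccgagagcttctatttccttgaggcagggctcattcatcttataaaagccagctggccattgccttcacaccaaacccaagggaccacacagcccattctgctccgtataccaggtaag

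TGANTCA, which reads the same on both strands, occurs in the SPRR1B window 141 and 111 bases before the start and in the SPRR1A window 108 bases before it. It was present in 8 of the 121 promoters of genes 2-fold above both controls (6.61%), in 21 of the 603 of genes below (3.48%), in 4.31% of the 5689 promoters of tested genes and in 7.76% of the 27305 in the RefSeq table. A match describes the letters and says nothing of binding.

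The other clear genes above both controls varied less among the clones than SPRR1B. APOC1, a small apolipoprotein, was at 167 in the 1-vector clone, 163 in clone G and 184 in clone E, against 40.5 in untreated HT29 and 11.3 in the GFP clone. The 3 clones lay within a narrow band, and the GFP clone (3.09) was farther away than untreated HT29 (1.84). CITED1, a transcriptional co-regulator, was at 149.8 to 168 in the clones, against 8.4 in untreated HT29 and 43.4 in the GFP clone. SRPX, a secreted sushi-repeat protein, was at 114 to 117 in the clones, against 7.3 in untreated HT29 and 34.8 in the GFP clone. Both were nearly equal in the 3 clones and had their larger difference from untreated HT29 (3.18 for CITED1 and 2.86 for SRPX). Both were dim in the controls and passed the filter only through the clones, as did ABCC8, SPRR1B, APOC1, SLC2A6, TGFB1I1 and ARC. HSD17B2, which oxidizes oestradiol and testosterone to weaker steroids, was at 3798 in the 1-vector clone, 2076 in clone G and 1646 in clone E, against 265 in untreated HT29 and 675 in the GFP clone. The 1-vector clone was the highest, and clone E still more than 2-fold above the GFP clone. SLC2A6, a member of the hexose transporter family, was at 64.8 to 140.2 in the clones, against 4.7 in untreated HT29 and 19.9 in the GFP clone. ARC, an activity-dependent immediate early gene, was at 105 to 231 in the clones, against 10.6 in untreated HT29 and 38.7 in the GFP clone. Untreated HT29 carried more of the difference than the GFP clone for HSD17B2, SLC2A6 and ARC. TGFB1I1 (Hic-5), a focal adhesion adaptor, was at 94.4 to 204 in the clones, against 33.2 in untreated HT29 and 28.2 in the GFP clone. UBTD1, a ubiquitin-domain protein, was at 140.3 to 195 in the clones, against 35.3 in untreated HT29 and 54 in the GFP clone. AK4, a mitochondrial adenylate kinase, was at 318 to 428 in the clones, against 112 in untreated HT29 and 131 in the GFP clone. In these 3 genes the controls were close to each other. A second AK4 probe set put the GFP clone, at 92.8, above all 3 clones, at 59.1 to 84.2.

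Among the genes below both controls, CD24 had the widest gap (3.41), followed by HSD17B8, a mitochondrial dehydrogenase of steroid and fatty acid metabolism. HSD17B8 was at 24.1 in the 1-vector clone, 21.7 in clone G and 5.8 in clone E, against 205 in untreated HT29 and 227 in the GFP clone. The controls differed little, and the clones were near the floor (-3.06 from untreated HT29 and -3.20 from the GFP clone). TM4SF4, a multi-pass membrane protein of gut and liver, was at 2.7 in the 1-vector clone, 5.3 in clone G and 1.3 in clone E, against 5699 in untreated HT29 and 61 in the GFP clone. Its largest step was between the controls themselves, as the GFP clone was already far below untreated HT29. ALDH1A1, which makes retinoic acid from retinal and is used as a stem cell marker, showed the same order at 8.7 in the 1-vector clone, 2.3 in clone G and 14.9 in clone E, against 4320.2 in untreated HT29 and 86.4 in the GFP clone. The log2 difference from untreated HT29 was -8.78 for TM4SF4 and -7.92 for ALDH1A1, and from the GFP clone -2.45 and -2.43. Both passed the filter only through the controls, as did HSD17B8 and, described below, PLOD2, SPAG1 and IFI27. With the clones at the floor for TM4SF4 and ALDH1A1, the size of their differences depends on the 10 added to each intensity. Antibody-treated HT29 stood with untreated HT29 for both, at 8014 for TM4SF4 and 3629 for ALDH1A1.

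The other genes of the 12, IFI27 apart, lay about equally far below both controls. ATP1B1, the regulatory beta chain of the Na,K-ATPase, was at 455 in the 1-vector clone, 295 in clone G and 433 in clone E, against 1650.0 in untreated HT29 and 1725 in the GFP clone. CD164, like CD24 a sialomucin of the cell surface, was at 131 in the 1-vector clone, 77.7 in clone G and 376 in clone E, against 1359.6 in untreated HT29 and 1398 in the GFP clone. For both genes the controls were nearly equal, so the difference was carried by both, and the other probe sets lay on the same side (1 for ATP1B1 and 2 for CD164). PLOD2, which hydroxylates collagen lysines, was at 18.3 to 48 in the clones, against 202 in untreated HT29 and 171 in the GFP clone. LACTB2, a mitochondrial endoribonuclease, was at 59.1 to 73.7 in the clones, against 271 in untreated HT29 and 251 in the GFP clone. SPAG1, an assembly factor for cilia dynein arms, was at 19.4 to 59.4 in the clones, against 245 in untreated HT29 and 202 in the GFP clone. LIN7C, a scaffold of epithelial cell polarity, was at 23.7 to 134 in the clones, against 592 in untreated HT29 and 431 in the GFP clone. PRELID3B, a protein of the family that moves phospholipids in mitochondria, was at 22.3 to 111 in the clones, against 405 in untreated HT29 and 341 in the GFP clone. In SPAG1, LIN7C and PRELID3B clone E was the highest clone, and still more than 2-fold under the lower control. IFI27, an interferon-induced gene, was at 67.1 in the 1-vector clone, 3.6 in clone G and 18.3 in clone E, against 209 in untreated HT29 and 3886 in the GFP clone. Its difference from the GFP clone (-6.98) was far larger than that from untreated HT29 (-2.82).

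Limma's SE for the difference from both controls ran from 0.35 for LACTB2 to 1.49 for TM4SF4 over these 24 genes, and the adjusted p was 0.208 for each. CD24 had a difference of -4.12 ± 0.56, HSD17B8 -3.13 ± 0.44, ABCC8 3.24 ± 0.55 and TUBA1A 4.56 ± 1.13 (SE). The error was widest where the controls disagreed, as for TUBA1A (SD between the controls 3.25) and TM4SF4 (4.48). It was 0.37 for ATP1B1, whose controls differed little (SD 0.045), and 0.60 for CD164, whose controls also did (0.028) while its clones did not (SD 1.09).

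**Figure D2:**
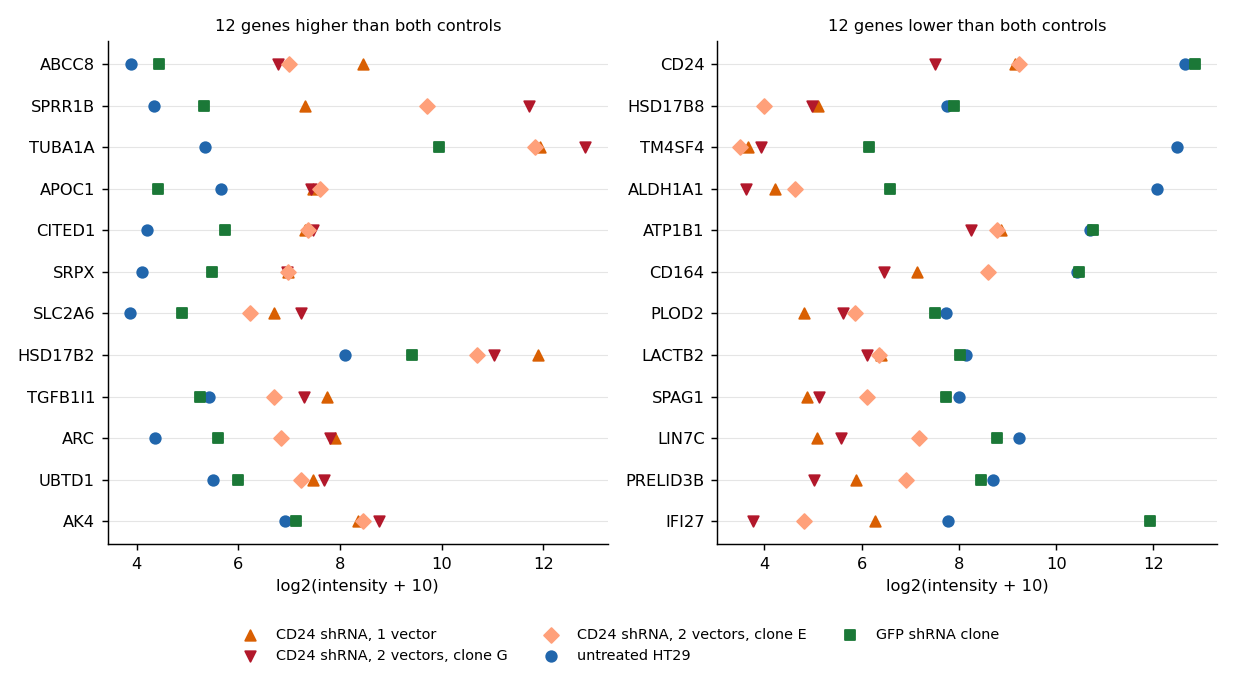
Intensity on the log2(intensity + 10) scale (x) of the 12 genes with the widest gap above (left) and below (right) both controls, 1 symbol an array. Clones are in orange and red, untreated HT29 is a blue circle and the GFP clone a green square. The 2 controls coincide for CD24, CD164 and ATP1B1 and lie far apart for TM4SF4, ALDH1A1 and TUBA1A.

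In 476 one-sided genes the difference was carried by untreated HT29, with the GFP clone under 2-fold from the CD24 shRNA clones, 323 of them above and 153 below. The 6 largest above were dim in untreated HT29, at 44.1 or less. IGFBP7, a secreted binding protein for growth factors, was at 595 in the 1-vector clone, 1119.7 in clone G and 626 in clone E, against 0.7 in untreated HT29 and 534 in the GFP clone. It was bright in all 4 clones with a vector, the GFP clone included, and at the floor in untreated HT29. SEPTIN6, a filament-forming GTPase, was at 414 in the 1-vector clone, 539.7 in clone G and 452 in clone E, against 3.4 in untreated HT29 and 279.6 in the GFP clone. EEF1A2, a translation elongation factor of muscle and neurons, was at 2120.1 to 3222 in the clones, against 44.1 in untreated HT29 and 1820.3 in the GFP clone. CIB2, a calcium-binding protein, was at 211 to 289 in the clones, against 4.2 in untreated HT29 and 151 in the GFP clone. DEPP1, a target of FOXO factors, was at 181 to 296 in the clones, against 5.7 in untreated HT29 and 126 in the GFP clone. CYFIP2, a subunit of the WAVE actin-regulating complex, was at 616 to 799 in the clones, against 37.6 in untreated HT29 and 369 in the GFP clone. Their differences from untreated HT29, which chose them, were 3.96 to 6.15, and those from the GFP clone 0.43 to 0.96. IGFBP7, CIB2, DEPP1 and CYFIP2 each had another probe set above the filter, and there the GFP clone lay among the CD24 shRNA clones. For IGFBP7 it was at 610.4, against 447.9 to 684.3 in those clones. Untreated HT29 lay below all of them at these probe sets too. Of the 323 genes above, 88 had other probe sets above the filter, and for 49 (55.7%) at least 1 of them was on the same side.

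Antibody-treated HT29 gave IGFBP7 2.3, SEPTIN6 2.8 and CIB2 3.3, close to untreated HT29. EEF1A2, at 150.4, and CYFIP2, at 87.9, lay between, and DEPP1, at 105, was near the GFP clone. Further genes passed limma against untreated HT29 without being one-sided, because the GFP clone lay among or beyond the CD24 shRNA clones. Among these were FN1, the matrix protein fibronectin (4.97 from untreated HT29, -0.36 from the GFP clone), and the adhesion protein CD99 (4.87 from untreated HT29, -0.08 from the GFP clone). In the other direction were KLK11, a serine protease (-5.24 and -0.17), and S100A4, a calcium-binding protein (-5.14 and 1.44). These 4 were picked after their values were seen.

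Below, the 6 largest differences from untreated HT29 were smaller. GRAMD1B, a sterol transfer protein, was at 43.8 in the 1-vector clone, 26.1 in clone G and 9.2 in clone E, against 545 in untreated HT29 and 43.9 in the GFP clone. The 1-vector clone and the GFP clone were nearly equal, so only untreated HT29 stood apart. CDC42, a small GTPase of cell polarity, was at 203 in the 1-vector clone, 193 in clone G and 379 in clone E, against 1566 in untreated HT29 and 455 in the GFP clone. TTK, a kinase of the spindle checkpoint, was at 4.8 to 56.8 in the clones, against 188 in untreated HT29 and 62.4 in the GFP clone. ANO1, a calcium-activated chloride channel, was at 35.3 to 165 in the clones, against 472 in untreated HT29 and 196 in the GFP clone. MAK16, a ribosome assembly factor, was at 40.3 to 96.2 in the clones, against 314 in untreated HT29 and 117 in the GFP clone. PGGHG, an enzyme that removes glucose from collagen hydroxylysine, was at 41.2 to 56.6 in the clones, against 232 in untreated HT29 and 103 in the GFP clone. The GFP clone lay between the CD24 shRNA clones and untreated HT29 in all 6. The differences from the GFP clone stayed short of 2-fold in each.

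In 250 one-sided genes the GFP clone carried the difference, 124 above and 126 below. The class is set by the 2-fold limit, and near that limit both controls lay about equally far away, as for AURKB above (0.99 from untreated HT29 and 1.15 from the GFP clone) and KLF5, a transcription factor, below (-0.94 and -1.19). In the 6 largest above, the GFP clone was more than 2-fold dimmer than untreated HT29. THYN1, a nuclear protein, was at 1062 in the 1-vector clone, 744 in clone G and 847 in clone E, against 717 in untreated HT29 and 203 in the GFP clone. ACOT7, which cleaves fatty acyl-CoA, was at 1060.1 in the 1-vector clone, 1417 in clone G and 881 in clone E, against 839 in untreated HT29 and 297 in the GFP clone. At another ACOT7 probe set untreated HT29, at 193.9, lay among the clones, at 190.1 to 312.7, with the GFP clone at 100.7. PRSS3 (mesotrypsin), from probe sets that related trypsin genes can share, was at 2132 to 4093 in the clones, against 1831 in untreated HT29 and 887 in the GFP clone. NT5DC2 was at 889.5 to 1713 in the clones, against 825 in untreated HT29 and 312 in the GFP clone. PPIF, the mitochondrial cyclophilin D, was at 2022 to 3958 in the clones, against 1892 in untreated HT29 and 718 in the GFP clone. TEDC2, a centriole protein, was at 166 to 234 in the clones, against 123 in untreated HT29 and 53.5 in the GFP clone. For these 6 the clones exceeded untreated HT29 by 0.28 to 0.81 and the GFP clone by 1.73 to 2.05.

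In the 6 largest below, the GFP clone was more than 2-fold brighter than untreated HT29. CYP1B1, a cytochrome P450 induced by dioxins, was at 111 in the 1-vector clone, 53.7 in clone G and 204 in clone E, against 206 in untreated HT29 and 888 in the GFP clone. Clone E and untreated HT29 were almost equal. The other 3 CYP1B1 probe sets gave differences of -2.86 to -3.27 from the GFP clone. At the brightest of them clone E, at 216.5, lay above untreated HT29, at 199.9. The same held at the dimmest, below the filter (12.8 against 7.2), so CYP1B1 was not one-sided at these probe sets. FAM13A was at 32.8 to 106 in the clones, against 120.1 in untreated HT29 and 541 in the GFP clone. FAM8A1 was at 35.9 to 103 in the clones, against 123 in untreated HT29 and 419 in the GFP clone. PCMTD2 was at 62.2 to 218 in the clones, against 233 in untreated HT29 and 761 in the GFP clone. IFIT3, an interferon-induced gene, was at 5.3 to 45.6 in the clones, against 51.3 in untreated HT29 and 189 in the GFP clone. ATP2B1, a calcium pump of the plasma membrane, was at 23.8 to 95.7 in the clones, against 98.7 in untreated HT29 and 274 in the GFP clone. At the probe set that stood for each gene, untreated HT29 sat just above the highest clone. No gene passed limma's adjusted test against the GFP clone alone.

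**Figure D3:**
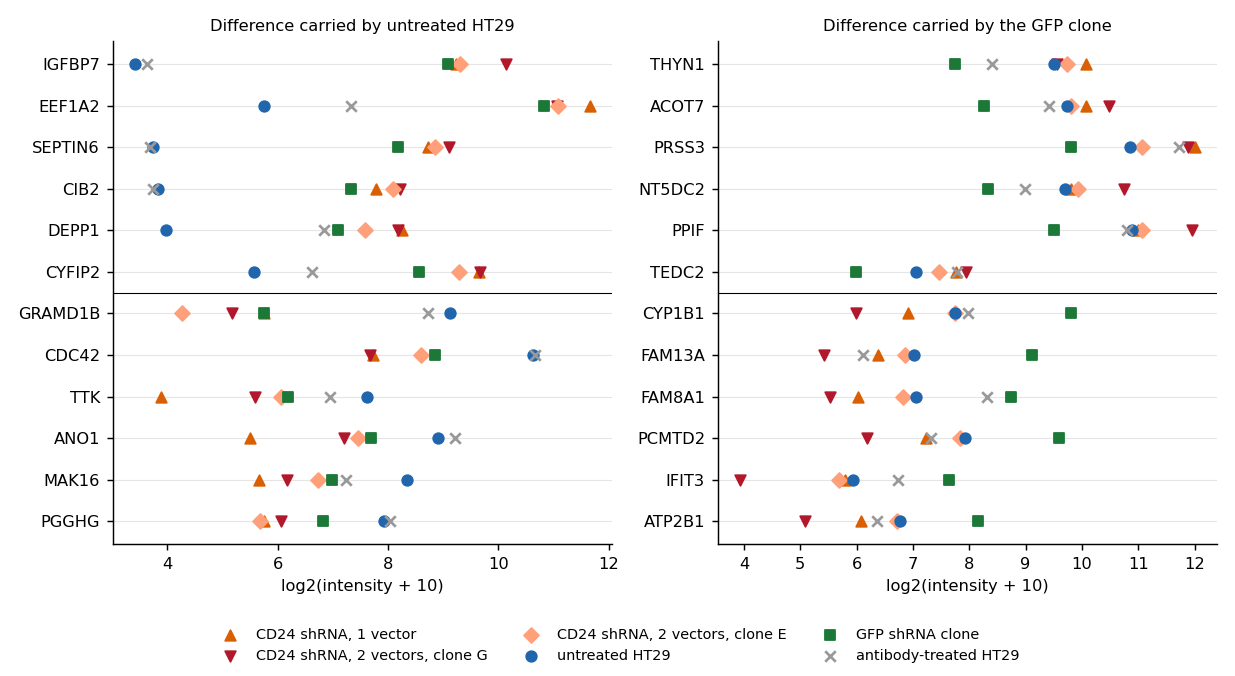
Log2(intensity + 10) of the genes with the largest difference carried by untreated HT29 (left) and by the GFP clone (right), higher in the clones above the line and lower below it. Grey crosses are antibody-treated HT29, which took part in the choice of each gene's probe set but not in that of the genes shown. In the left panel the green squares of the GFP clone lie near the CD24 shRNA clones, and in the right panel the blue circles of untreated HT29 do.

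Over all genes of a class, antibody-treated HT29 lay outside the clones on the same side as the controls for 127 of the 141 genes above both (90.1%), 298 of the 323 above and carried by untreated HT29 (92.3%) and 85 of the 124 carried by the GFP clone (68.5%). For genes below, it did so for 416 of 718 (57.9%), 108 of 153 (70.6%) and 45 of 126 (35.7%). Over all tested genes that array lay below all 3 clones in 37.9% and above all 3 in 26.9%. It had its own treatment, so these shares describe where it sits and are no test.

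Gene groups were described from 26 lists by how many of their tested members were one-sided. No member of any list passed limma against both controls, so the counts below rest on the order of the arrays alone, and they read against 20.1% above and 19.8% below for all tested genes. Counts of genes 2-fold from both controls read against 2.09% above and 10.6% below. Against untreated HT29 alone 5 lists held calls, for DUSP5, ENO2, SRPX, FN1 and CD99 higher and for AKR1B10 lower in the clones.

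Lists close to CD24 itself came first. Of 16 tested sialomucins and mucin-like surface proteins, 3 were below both controls by 2-fold and 2 were above. CD24 is counted among the 3, but it is the target of the shRNA and was low by design. Only the other members therefore bear on the list. The list is wider than its name, as it also holds adhesion molecules of the immunoglobulin family. The 3 were CD24, CD164 and ALCAM, an adhesion molecule of the immunoglobulin family at 22.6 to 101 in the clones, against 168 in untreated HT29 and 378 in the GFP clone. MCAM, another such molecule, was at 48.6 to 122 in the clones, against 17.1 in untreated HT29 and 32 in the GFP clone. Of 20 genes of GPI anchor synthesis and transfer, on which CD24 depends for its place in the membrane, 2 were below, a smaller share than over all tested genes. PIGK, the protease subunit of the transamidase that attaches the anchor, was at 24.7 to 82.5 in the clones, against 157 in untreated HT29 and 172 in the GFP clone. DPM1, the catalytic subunit of dolichol-phosphate mannose synthase, was at 270.4 to 668 in the clones, against 1473 in untreated HT29 and 939 in the GFP clone. DPM2 was above, under 2-fold from both. Of 20 genes of Src family and raft signalling, 4 were below, close to the share over all tested genes, and all 4 were 2-fold from both controls. These were the kinase YES1 at 55.2 to 279.5 in the clones, against 565 in untreated HT29 and 329.7 in the GFP clone, the phosphatase PTPN11 at 167 to 663 in the clones, against 799 in untreated HT29 and 784 in the GFP clone, the focal adhesion kinase PTK2 at 349.9 to 755 in the clones, against 1229 in untreated HT29 and 1184 in the GFP clone and TFPI, a coagulation inhibitor, at 87.2 to 333 in the clones, against 464 in untreated HT29 and 1226 in the GFP clone. CSK, the kinase that inhibits Src kinases, was above at 985 to 1338 in the clones, against 616 in untreated HT29 and 622 in the GFP clone, under 2-fold from both.

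ERK output genes, which are switched on by MAP kinase signalling, were above in 8 of 23 and below in 2. DUSP5, a nuclear ERK phosphatase, was at 494 in the 1-vector clone, 903 in clone G and 428 in clone E, against 28.2 in untreated HT29 and 181 in the GFP clone. EGR1, an immediate early transcription factor, was at 272 in the 1-vector clone, 1234 in clone G and 765 in clone E, against 211 in untreated HT29 and 198 in the GFP clone. Both exceeded each control by 2-fold, as ARC did, but DUSP5 differed more from untreated HT29 (3.94) than from the GFP clone (1.62), and EGR1 about equally (1.55 and 1.64). SPRY1, an inhibitor of the pathway, was below both at 40.6 to 117 in the clones, against 253 in untreated HT29 and 286 in the GFP clone, and EREG, a ligand of the EGF receptor, below at 109 to 234 in the clones, against 318 in untreated HT29 and 601 in the GFP clone. FOS overlapped, at 46.5 to 113 in the clones, against 262 in untreated HT29 and 98.1 in the GFP clone. Of 13 NF-kB targets 3 were above and 0 below. NFKBIA, the inhibitor of NF-kB, was above both at 599 to 1285 in the clones, against 426 in untreated HT29 and 355 in the GFP clone, and RELB was carried by untreated HT29 at 182 to 304 in the clones, against 43.3 in untreated HT29 and 161 in the GFP clone.

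Interferon-stimulated genes had the lowest median difference from the GFP clone of the 26 lists. Of 24 tested, 6 were below both controls, and the GFP clone carried 4 of these (IFIT3, IRF7, SP110 and PLSCR1). The median difference of the list was 0.04 from untreated HT29 and -2.14 from the GFP clone, against 0.04 and -0.05 for all genes. MX1, an antiviral GTPase, was at 42.4 to 70.1 in the clones, against 54.9 in untreated HT29 and 828 in the GFP clone. IFIT1, which binds viral RNA, was at 19 to 77.5 in the clones, against 74.6 in untreated HT29 and 726 in the GFP clone. ISG15, a ubiquitin-like protein, was at 2257 in the 1-vector clone, 1424 in clone G and 973 in clone E, against 1092 in untreated HT29 and 5534 in the GFP clone. These 3 overlapped because untreated HT29 lay among the clones, with the GFP clone high alone. EIF2AK2 (PKR), a kinase activated by double-stranded RNA, was below both at 38.9 in the 1-vector clone, 59.3 in clone G and 232 in clone E, against 286 in untreated HT29 and 711 in the GFP clone, where clone E was close to untreated HT29. ISG20 was above both at 261 to 910.3 in the clones, against 72.3 in untreated HT29 and 168 in the GFP clone. In antigen presentation 5 of 18 were below, of which B2M, at 2484 to 4034 in the clones, against 4343 in untreated HT29 and 8207 in the GFP clone, and HLA-G, at 1088 to 1175 in the clones, against 1231 in untreated HT29 and 2667 in the GFP clone, were carried by the GFP clone. HLA class I genes share sequence, so the HLA-G value may include others. Of 14 RNA interference genes TARBP2, a partner of Dicer, was above both at 817 to 1284 in the clones, against 418 in untreated HT29 and 511 in the GFP clone, and FMR1 and FXR1 were below both.

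Mitosis genes were more often below than above. Of 31 tested, 11 were below, 9 of them 2-fold from each control, and 5 were above. CENPF, a kinetochore protein, was at 50.6 in the 1-vector clone, 79.3 in clone G and 152 in clone E, against 301 in untreated HT29 and 324 in the GFP clone. TOP2A, the topoisomerase of dividing cells, was at 79.5 in the 1-vector clone, 56.5 in clone G and 215 in clone E, against 394 in untreated HT29 and 492 in the GFP clone. ASPM, a spindle pole protein, was at 4.2 to 65.6 in the clones, against 248 in untreated HT29 and 119 in the GFP clone. CDK1, the kinase that drives entry into mitosis, was at 46.9 in the 1-vector clone, 86.6 in clone G and 451 in clone E, against 1023 in untreated HT29 and 515 in the GFP clone. Clone E was the highest clone in all 4, and its CDK1 was close to that of the GFP clone. AURKB, a kinase of the chromosomal passenger complex, went the other way at 636 to 1175 in the clones, against 422 in untreated HT29 and 377 in the GFP clone, as did CDC20, an activator of the anaphase-promoting complex, at 2373 to 3677 in the clones, against 1900.0 in untreated HT29 and 1002 in the GFP clone. The list's median was -0.98 from untreated HT29 and 0.05 from the GFP clone. In DNA replication, 1 of 36 was above (POLD1) and 2 were below (ORC2 and CDC7).

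Steroid dehydrogenases and aldo-keto reductases split. Of 19 tested, 5 were below, all by 2-fold from each control, and 5 were above. The 5 below were HSD17B8, HSD17B11 at 53.1 to 225 in the clones, against 414 in untreated HT29 and 529 in the GFP clone, HSD17B12, which elongates fatty acids, at 455 to 1007 in the clones, against 1554 in untreated HT29 and 1536 in the GFP clone, HSD17B4, a peroxisomal enzyme, at 179 to 548 in the clones, against 738 in untreated HT29 and 726 in the GFP clone, and AKR1B10, which reduces retinal, at 294 in the 1-vector clone, 170.0 in clone G and 107 in clone E, against 2144 in untreated HT29 and 797 in the GFP clone. AKR1B10 differed by -3.54 from untreated HT29 and by -2.12 from the GFP clone. HSD17B2 was above both, as described, and DHRS2 lay about equally far from both (1.03 from untreated HT29 and 0.96 from the GFP clone) at 78.8 to 83.5 in the clones, against 34.3 in untreated HT29 and 36.6 in the GFP clone.

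Adhesion and structure genes lay on both sides. Of 21 epithelial junction genes 7 were below and 3 above. EPCAM, which joins epithelial cells, was at 1308 in the 1-vector clone, 1614 in clone G and 2421 in clone E, against 4028 in untreated HT29 and 3546 in the GFP clone. PKP2, of the desmosome plaque, was at 34.2 to 106 in the clones, against 177 in untreated HT29 and 174 in the GFP clone, DSG2, a desmosomal cadherin, at 77.7 to 347 in the clones, against 482 in untreated HT29 and 656 in the GFP clone, and CXADR, a tight junction protein, at 21.4 to 157 in the clones, against 222 in untreated HT29 and 439.5 in the GFP clone. Periplakin (PPL) was above and carried by untreated HT29, at 722 to 822 in the clones, against 182 in untreated HT29 and 485 in the GFP clone. Of 29 actin and focal adhesion genes 7 were above, 4 of them by 2-fold from both (TGFB1I1, GAS2L1, FHL2 and PDLIM1), and 2 below. FHL2, a LIM-domain adaptor, was at 910.1 to 1437 in the clones, against 464 in untreated HT29 and 424 in the GFP clone, and GAS2L1, which links actin and microtubules, at 1155 to 1829.5 in the clones, against 214 in untreated HT29 and 575 in the GFP clone. Of 10 mesenchymal and matrix genes 4 were above and 0 below, with ACTA2, smooth muscle actin, carried by untreated HT29 at 121 to 207 in the clones, against 39.7 in untreated HT29 and 84.7 in the GFP clone. Of 9 intestinal differentiation genes 2 were above, KRT20 at 4016 to 4799.8 in the clones, against 1117 in untreated HT29 and 2761 in the GFP clone and carbonic anhydrase CA2 at 112 to 165 in the clones, against 13.9 in untreated HT29 and 87.7 in the GFP clone, both carried by untreated HT29, and 2 were below, KLF5 and GATA6.

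Of the other lists, oxidative phosphorylation had 15 of 33 above and 2 below, but 10 of the 15 were under 2-fold from both controls. NDUFA9 and UQCRC1, subunits of respiratory complexes, passed 2-fold, with UQCRC1 at 3155 to 4479.6 in the clones, against 1793 in untreated HT29 and 1668 in the GFP clone. The list's median was 0.21 from untreated HT29 and 0.57 from the GFP clone, and under quantile normalization 0.13 and 0.33, where all genes had 0.12 and 0.16. All 7 ribosomal protein genes above (of 24, with 0 below) were under 2-fold, and RPS25 turned to -0.0088 from both controls under quantile normalization. Of 18 cytosolic heat shock genes 5 were below, among them the chaperone HSP90AA1 at 756 in the 1-vector clone, 1724 in clone G and 4124 in clone E, against 6048 in untreated HT29 and 5198 in the GFP clone, and 4 were above under 2-fold. Golgins and Golgi tethers were below in 6 of 18 and above in 2, with GCC2, a golgin of the trans-Golgi, at 23.2 to 48.6 in the clones, against 138 in untreated HT29 and 210.2 in the GFP clone. NRF2 targets were below in 5 of 20 and above in 2. Among 18 p53 targets 4 were above and 5 below. CDKN1A, the cell cycle inhibitor p21, was at 477 in the 1-vector clone, 1017 in clone G and 505 in clone E, against 63.1 in untreated HT29 and 296 in the GFP clone. TP53I3 was at 602 to 974 in the clones, against 123 in untreated HT29 and 332 in the GFP clone. Untreated HT29 carried more of both differences. In the opposite direction CCNG1 was at 308 to 1666 in the clones, against 2636 in untreated HT29 and 2409.5 in the GFP clone. Of 26 glycolysis and hypoxia genes 4 were above and 3 below, of 17 cholesterol synthesis genes 5 and 4, of 21 pump and ion transport genes 3 and 4, and of 12 BCL-2 family genes 1 and 2. ENO2, the neuronal enolase, was at 165 to 389.6 in the clones, against 17.2 in untreated HT29 and 82 in the GFP clone, and CFTR, the chloride channel, at 7.9 to 88.8 in the clones, against 167 in untreated HT29 and 500.2 in the GFP clone. Of 24 measured cornified envelope genes only 5 passed the filter, and 3 of these were above (both SPRR1 genes and KRT15) and KRT13 was below.

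**Figure D4:**
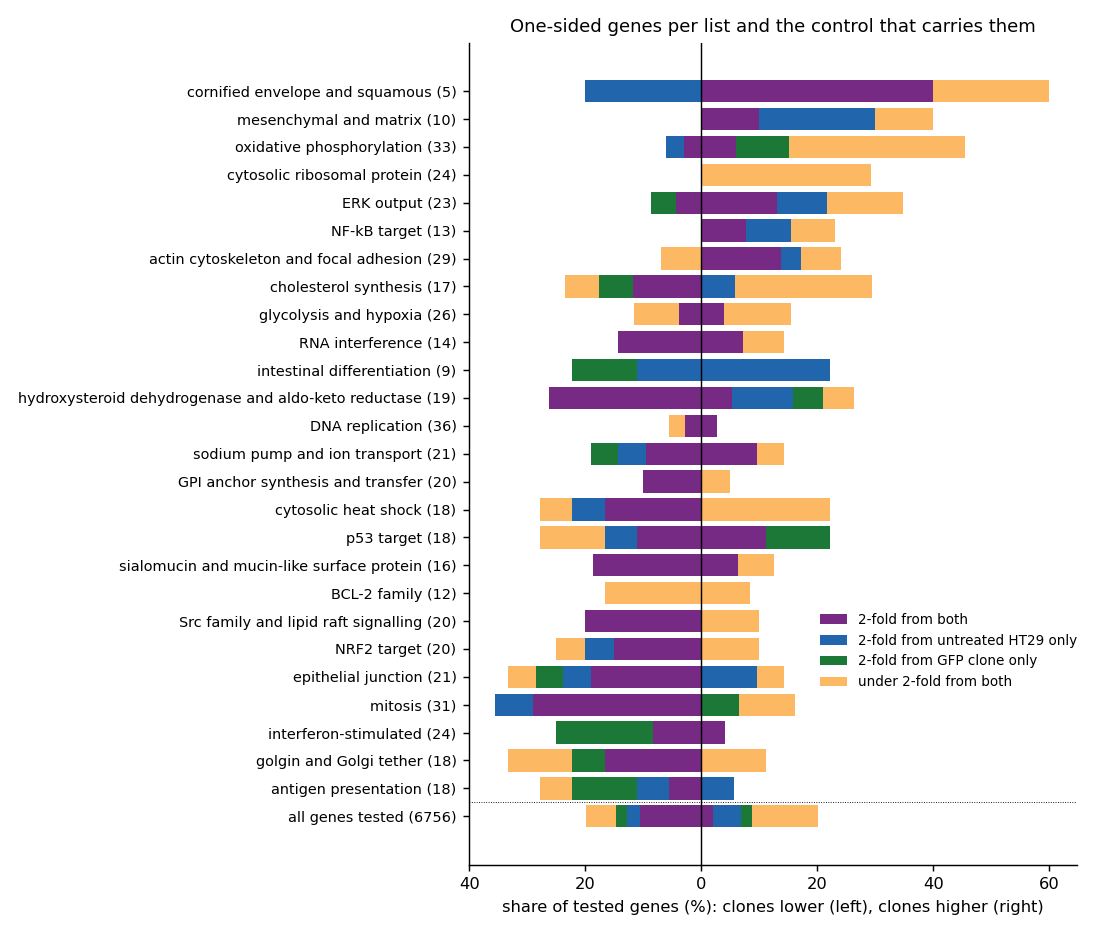
Share of each list's tested genes (their number in parentheses) whose 3 clones all lay above both controls (right) or below both (left), coloured by the control that carries the difference; the lowest row is all 6756 genes. Mitosis has its larger share on the left, mostly 2-fold from both controls, and oxidative phosphorylation on the right, mostly under 2-fold.

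Genes below both controls were long. The median genomic span, from RefSeq (GRCh38.p14), was 55.6 kb for the 718 genes 2-fold below both controls and 14.5 kb for the 141 above, against 29.2 kb for all tested genes. In 4 equal groups of 1689 genes, from the shortest to the longest, the share below both was 2.72%, 6.99%, 14.7% and 18.1%, and the share above was 3.61%, 2.13%, 1.48% and 1.12%. The clones did not contribute alike. In the shortest group the median difference from untreated HT29 was 0.45 in the 1-vector clone, 0.45 in clone G and 0.15 in clone E, and in the longest it was -0.41, -0.44 and 0.05. The GFP clone, set against untreated HT29, had 0.06 in the shortest and 0.30 in the longest group. Antibody-treated HT29, a single array with no vector, had 0.18 and -0.43, a slope like that of the 1-vector clone and clone G. Of the 5 arrays compared, the 1-vector clone and clone G also had the highest dap signal, and its part in this pattern was not tested.

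**Figure D5:**
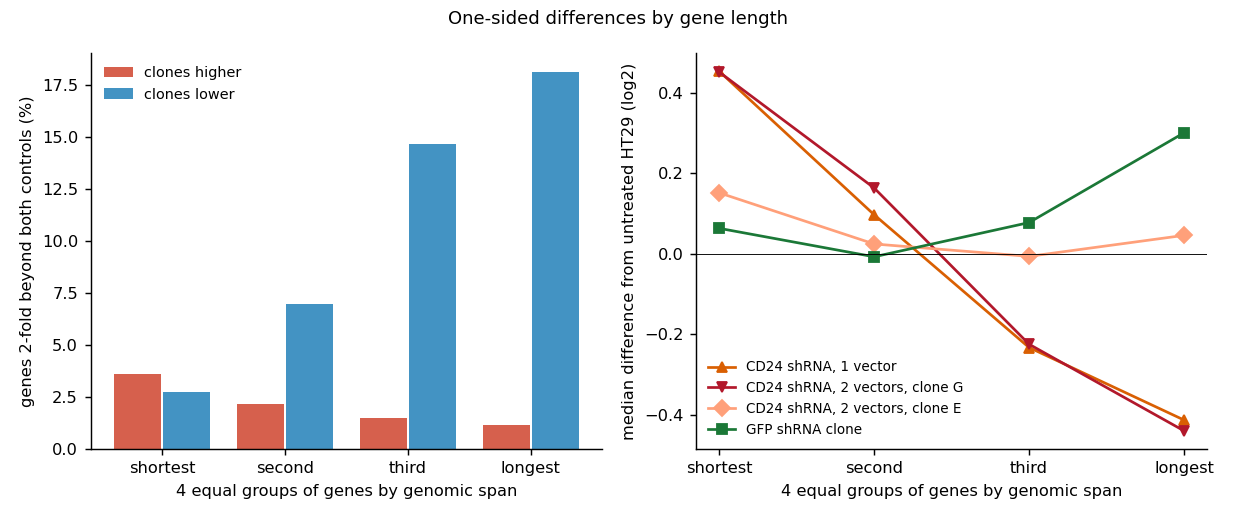
Left, the share of genes (%) 2-fold above or below both controls in each of 4 equal groups of genes by genomic span. Right, the median log2 difference of each clone, and of the GFP clone, from untreated HT29 in the same groups; the lines of the 1-vector clone and clone G fall with length and that of clone E stays near 0.

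The share of genes 2-fold below both controls also differed by chromosome, from 26.1% on chromosome 4, 24.4% on chromosome 8 and 17.97% on chromosome 6, to 1.64% on chromosome 22 and 0.901% on chromosome 19. The median span of the tested genes was 51.4 kb on chromosome 4, 31.9 kb on chromosome 8 and 19.9 kb on chromosome 6. It was 29.1 kb on chromosome 22 and 15.3 kb on chromosome 19, so the shares did not follow the order of the spans. CD24 lies on chromosome 6. Of the 20 tested genes nearest to it in gene order, 10 on each side, 14 were below both controls, 8 of them 2-fold from each, and 0 were above. The median difference of the 20 was -1.30 from untreated HT29 and -1.05 from the GFP clone. CD164 is the seventh tested gene on one side, and ATG5, needed for autophagy, the third on the other, at 83.9 to 215 in the clones, against 418 in untreated HT29 and 320.4 in the GFP clone. FOXO3, a stress-responsive transcription factor of the same stretch, was at 64.5 to 240.0 in the clones, against 269 in untreated HT29 and 358 in the GFP clone. The window was chosen after the values were seen.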

How the data were processed

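RNA of 8 cell samples was hybridised to 1-colour Affymetrix human arrays, and 5 arrays were compared here. The authors deposited 1 linear-scale intensity per probe set and array, made with MAS5 according to the submitters' processing notes (version not given in the sources used here). The 2% trimmed mean was 250.1 on each of the 5 arrays, so no further scaling was applied. The median intensity still differed, at 36.9 in the 1-vector clone, 32.4 in clone G and 47.5 in clone E, against 44 in untreated HT29 and 63.1 in the GFP clone. Apart from the quantile normalization run as an alternative, the part of this in the counts was not tested. Intensities were turned into log2(intensity + 10). The number of arrays limits the precision. A gene was represented by the brightest, by its mean over all 8 arrays, of its probe sets with 1 symbol in GEO's platform annotation (19064 of 22277 probe sets, with 1043 having several symbols and 2108 none), updated through the Entrez ID.

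Clones were compared with both controls, and with each alone, by limma (3.58.1, R 4.3.3; lmFit and eBayes, two-sided, Benjamini-Hochberg), with 3 and 2 residual degrees of freedom. One-sidedness, carriers and gaps are descriptions. The genes named are CD24, the 12 per direction with the widest gap among genes 2-fold from both controls, the 6 per direction with the largest difference carried by each control alone, and up to 4 one-sided members of a list with the widest gap, plus members named for their role. The members, lists and tests were chosen with earlier results of these data known. Alternatives were other pseudocounts (1 and 50), quantile normalization, no filter, other probe set rules, a 3-fold limit, another spread estimate and leaving out each array.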

Additional observations from a re-analysis of the deposited data

How the results depend on the processing

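CD24 stayed lower under every setting run, from -3.37 to -3.01 with 1 array left out, -2.67 without _x_at probe sets and -4.12 at the brightest probe set. Genes 2-fold above both controls numbered 279 under quantile normalization, 79 with pseudocount 50 and 15 at a 3-fold limit, and 75 to 975 with 1 array left out. Genes below numbered 466 with pseudocount 50, 260 at 3-fold and 521 to 1220 with 1 array left out. Genes carried by untreated HT29 numbered 510 to 789 with 1 clone left out, and by the GFP clone 284 to 498, or 451 with no filter. The stricter count, added after the data were seen, was 61 above under quantile normalization, 10 above and 44 below with pseudocount 50, and 37 above with no filter. By its definition the stricter count cannot fall when an array is left out. With 1 array left out it was 29 to 549 above and 90 to 940 below, 549 being without the GFP clone and 940 without clone E. Limma's calls against both controls were 0 under every setting with all 5 arrays and 0 to 626 with 1 left out, the high value being without clone E. Against untreated HT29 the 66 calls became 180 under quantile normalization, 129 with pseudocount 50, 9 with no filter, 195 with a trended prior, 522 with all 8 arrays in the fit, and 41 to 1364 with 1 clone left out. Against the GFP clone the 0 calls became 11 with pseudocount 50, 2 with the mean of probe sets, 7 with a trended prior, 2 with all 8 arrays and 2 to 787 with 1 clone left out. The 135 named genes were chosen as one-sided, so leaving out an array or the filter could not reverse their direction. Nor could another pseudocount at the same probe set, so most of the values are no test of direction. Of 1737 values for these genes under 13 settings, 3 reversed: RAN (-0.10) and BCL2L1 (-0.00032) with the mean of probe sets, and RPS25 (-0.0088) under quantile normalization. The causes were not tested. A fit without untreated HT29 or without the GFP clone rests on 1 control array, assumed to vary like the clones, and a single-control fit without 1 clone rests on 2 clones.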
